A study of Capra hircus with 6 samples.

Results

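Coat colour in goats is worn by hair, but the skin that grows it holds many other tissues, and the comparison described here is that between the whole skin of white and of black goats. The material was flank skin of female Changthangi Pashmina goats aged 26 months, the breed that yields cashmere, taken by punch biopsy after local anaesthesia with lignocaine. Of the 6 goats, 2 were white, 2 were black and 2 were brown. The white and black goats, 4 in all, make the comparison, and the brown goats are given as a further level beside them. All were of 1 sex, age and breed, and poly-A RNA of each was sequenced as paired reads. The values are FPKM, fragments mapped per length of transcript and scaled to the mapped fragments of a library, with 1 pooled value per colour. A locus entered where CuffDiff could test it in this comparison (status OK) and where its FPKM reached 1 in black or in white skin, which left 14168 of the 26938 loci of the table. The ratio was taken as log2 of white over black. Its median over the 13040 loci that reached an FPKM of 1 in both colours was 0.23 (1.17-fold), and it was subtracted from every ratio, so that a centred ratio of 0 stands for the middle of the expressed loci. With 1 value per colour there is no replicate check: no difference below could be set against the spread between goats, and none carries an SD or a p-value. The fragments behind an FPKM are not stated, so the depth of single values is unknown.

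Skin is layered. Basal keratinocytes of the epidermis divide, move up and cornify, and hair follicles run from the epidermis into the dermis, where a dermal papilla of specialised fibroblasts instructs the matrix keratinocytes above it to build the shaft and the inner root sheath. Follicles cycle between growth (anagen), regression and rest (telogen), and melanocytes in the follicle bulb pass pigment to the shaft during growth. The dermis around them is made of fibroblasts and the collagens, proteoglycans and elastic fibres they secrete, with vessels, nerves, glands and resident immune cells. In a biopsy of all these tissues together, fewer cells of a type and less RNA per cell cannot be told apart.

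The labelled tissue showed its defining markers in both colours. The epidermal keratins were among the most abundant transcripts, with KRT5 at 5986 FPKM in black, 9336 in brown and 8042 in white skin and KRT1 at 4335 FPKM in black, 5825 in brown and 4835 in white skin. The fibroblast genes COL1A1 and DCN, the endothelial gene PECAM1 (32.8 FPKM in black, 42.3 in brown and 42.7 in white skin), the smooth muscle gene DES and the T cell gene CD3E (8.13 FPKM in black, 6.70 in brown and 11.3 in white skin) were all measured. The skeletal muscle marker TTN was listed at 0.0108 FPKM in black and 0.0161 in white, the red cell gene ALAS2 at 0 in both, and the fat hormone LEP at 0 in all 3 colours. Other muscle markers were higher, with ACTA1 at 1.22 FPKM in black and 0.412 in white and CKM at 0.675 and 0.841. The fat marker ADIPOQ was at 1.14 FPKM in black and 0.733 in white, and PLIN4 of the adipocyte list at 10.7 and 17.2. An absence of muscle or fat RNA is therefore not shown. The defining markers of melanocytes were the ones that differed most: summed over the 6 fixed markers they stood at 54.1 FPKM in black, 57.8 in brown and 13.5 in white skin, and 4 of the 6 were at least 2-fold lower in white. PMEL alone was at 30.9 FPKM in black and 3.77 in white skin, while MLANA was at 5.95 and 5.86. A single unnamed locus on chromosome 14 held 60.4% of the summed FPKM of these loci in black, 66.2% in white and 37.3% in brown skin, so a sum over all FPKM says little about the other genes.

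A centred ratio could be taken at 14086 loci, since 82 were listed at 0 in one colour. Of these, 883 (6.27%) were at least 2-fold higher in white and 484 (3.44%) at least 2-fold lower, and the median centred ratio over all was 0.03. At 4-fold or more, 127 loci (0.902%) were higher and 87 (0.618%) lower. The split depended on the centring: without it, 1509 loci (10.7%) were higher and 310 (2.2%) lower, which moved the higher share of both tails together from 64.6% to 83.0%, and with the median of 15 reference genes subtracted it was 85.7% (1675 and 280 loci). A pseudocount of 1 FPKM took it to 54.4% (394 and 330). The loci next to the limits show how fine the border is. DACT1, at 1.86 FPKM in black and 4.37 in white, stood just inside the higher tail and MCTP2, at 1.95 and 4.56, just outside it. CACFD1, at 1.30 and 0.761, was just inside the lower tail and HSF4, at 4.31 and 2.53, just outside. At the border of the FPKM limit, SMCP entered with 1.00 FPKM in black and 0.750 in white skin, and LOC102190827, with 0.999 and 0.645, did not.

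**Figure D1:**
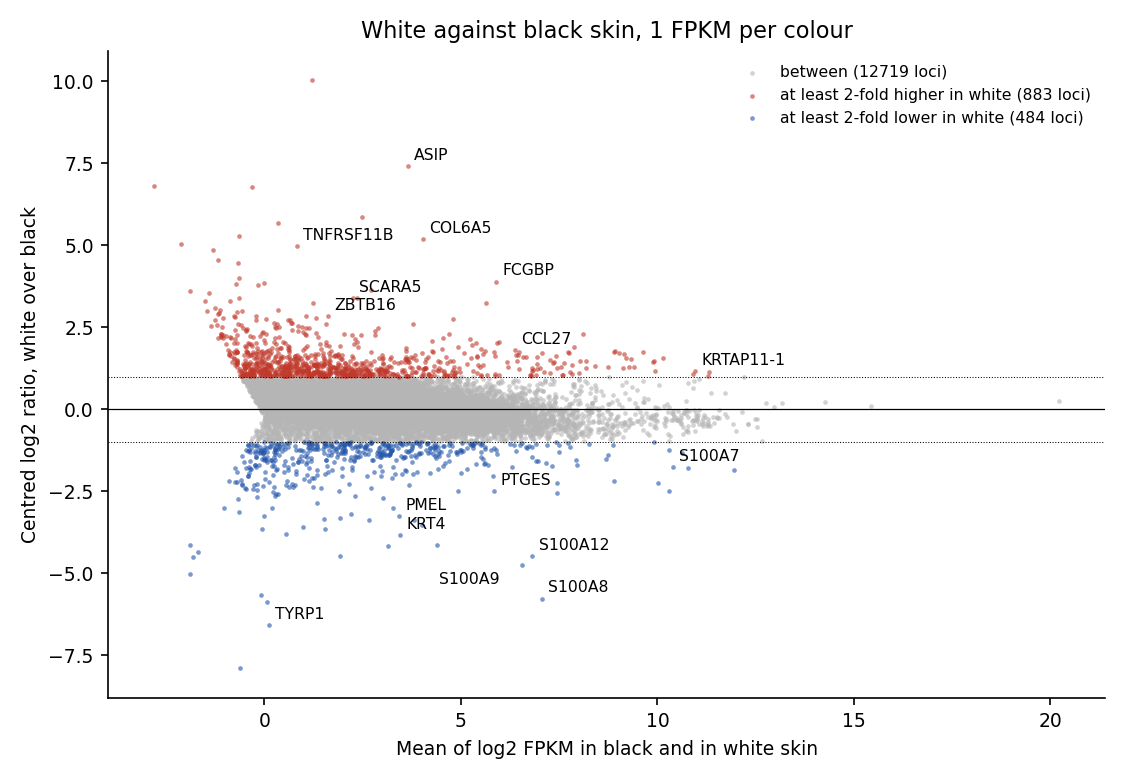
Each point is 1 of 14086 loci, with the mean of its log2 FPKM in black and white skin on the horizontal axis and its centred log2 ratio of white over black on the vertical axis; dotted lines mark the 2-fold limits and selected genes are named. The 484 loci lower in white include S100A8, S100A9 and S100A12 far from the rest at high levels, while the 883 loci higher in white are mostly of low level, with a median of 1.38 FPKM in black skin.

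The tails differed from the other loci in kind. The median level of the higher tail was 1.38 FPKM in black and 4.34 in white skin, and 371 of its 883 loci were below 1 FPKM in one colour. The lower tail had medians of 7.32 FPKM in black and 3.01 in white, with 134 of 484 below 1 FPKM in one colour. Loci known only by a numbered identifier made up 14% of all loci with a ratio, 28.4% of the higher tail and 34.5% of the lower. Long non-coding RNAs were 2.58% of all, 5.10% of the higher tail (45 loci) and 6.40% of the lower (31). The span of a locus, its length on the genome with introns, separated the tails further. The median span was 34932 bp in the higher tail and 7268 bp in the lower, against 19422.5 bp over all. Loci over 100 kb made up 29.4% of the higher tail (260 loci) and 3.72% of the lower (18), against 12.3% of all. Before centring, the median ratio was 0.05 in the class of the shortest loci, up to 3 kb, and 0.65 in the longest, over 100 kb. When the loci were instead centred within 20 bins of span, 758 loci (5.38%) were higher and 426 (3.02%) lower, and 636 of the 883 and 376 of the 484 kept their tail. The cause of this shift with span was not tested.

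**Figure D2:**
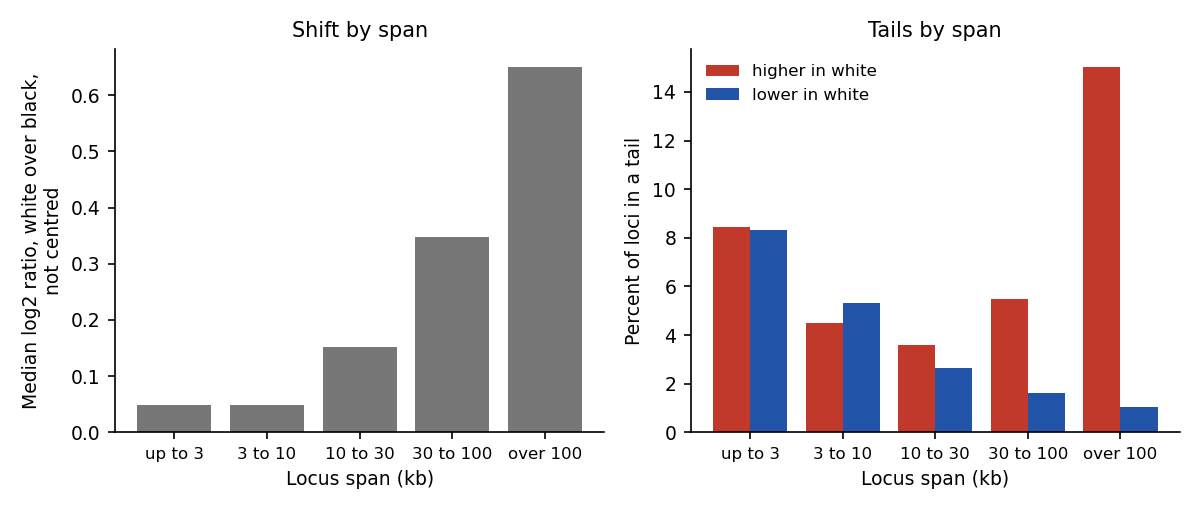
The left panel gives the median log2 ratio of white over black before centring in 5 classes of locus span, and the right panel the percent of loci in each class that lay in the higher (red) or lower (blue) tail after centring. The median rises from 0.05 to 0.65 across the classes, the higher share is 15.0% over 100 kb, and the lower share falls from 8.32% in the shortest class to 1.04% in the longest.

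The genes with the lowest ratios were of mixed kinds, with 2 S100 genes first. S100A8, which pairs with S100A9 to form the antimicrobial and pro-inflammatory protein calprotectin, was at 912 FPKM in black, 290.4 in brown and 19.6 in white skin. S100A12, a related calcium-binding alarmin, was at 491 FPKM in black, 103 in brown and 26.0 in white skin. Their centred log2 ratios of -5.77 and -4.47 were the 2 lowest among genes that the table itself gives a symbol and that reached an FPKM of 1 in both. This choice leaves out, among others, TYRP1 (-6.58), which was below 1 FPKM in white skin, and S100A9 (-4.76), whose locus has only a numbered name. Next within the choice was KRT4, a keratin of mucosal epithelia, with 38.2 FPKM in black, 9.28 in brown and 3.14 in white skin. SDS, the enzyme serine dehydratase, was at 19 FPKM in black and 2.13 in white, and PTX3, a soluble pattern recognition protein released in inflammation, at 41.9 FPKM in black, 7.67 in brown and 4.72 in white skin. The interstitial collagenase MMP1 was highest in brown: it was at 11.0 FPKM in black, 30.3 in brown and 1.30 in white skin. The same held for tenascin C (TNC), a matrix protein of wounds and growing mesenchyme, with 66.3 FPKM in black, 105 in brown and 13.7 in white skin. PTGES, which makes prostaglandin E2, was at 126 FPKM in black, 56.1 in brown and 26.2 in white skin, and the transcription factor FOSL1 at 13 FPKM in black, 10.7 in brown and 1.66 in white skin. KLK6, a serine protease of the kallikrein family, was one of the more abundant of these genes, at 352 FPKM in black, 174 in brown and 87.0 in white skin. The ubiquitin-like ISG15, induced by interferon, was at 26.2 FPKM in black, 13.7 in brown and 6.26 in white skin. The others among the 20 lowest were PMEL, CCL19, FCN1, ACKR1, C3H1orf162, CXCL8, EFCAB9, PI3 and ISG20, with centred ratios from -3.26 to -2.10.

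Measured by the difference in FPKM rather than by ratio, the lower tail was led by 5 loci without a symbol and by S100A8, S100A7, S100A7A, S100A2 and SPRR4. S100A7 (psoriasin), an antimicrobial protein of keratinocytes, was at 2287 FPKM in black, 1010 in brown and 790.2 in white skin, and its close relative S100A7A at 943 FPKM in black, 211 in brown and 244 in white skin; reads shared between these near-copies make their separate values uncertain. S100A2 was at 1779 FPKM in black, 2437 in brown and 874 in white skin, so that brown stood above black there. SPRR4, a small proline-rich protein of the cornified envelope, was at 1268 FPKM in black, 725 in brown and 741 in white skin, at the very edge of the tail.

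The genes with the largest ratios in the higher tail were of mixed kinds. COL6A5, a chain of the beaded-filament collagen VI, had the largest ratio (5.18) among genes chosen in the same way, at 2.51 FPKM in black, 7.17 in brown and 107 in white skin. ASIP had a larger ratio (7.42) but was below 1 FPKM in black skin, so the choice left it out. FCGBP, a mucus protein that binds the Fc part of IgG, was at 14.3 FPKM in black, 34.4 in brown and 249 in white skin. SCARA5, a ferritin receptor, was at 1.36 FPKM in black, 2.55 in brown and 16.8 in white skin, and the calcium-dependent NADPH oxidase NOX5 at 1.48 FPKM in black, 1.25 in brown and 18.1 in white skin. ZBTB16, a transcription factor that responds to glucocorticoids, was at 1.05 FPKM in black, 2.89 in brown and 8.89 in white skin, and PDK4, a kinase that shuts off pyruvate dehydrogenase in fasting, at 2.82 FPKM in black, 2.79 in brown and 17.5 in white skin. SCUBE2 helps release Hedgehog ligands from the cells that make them and was at 2.97 FPKM in black, 5.45 in brown and 16.7 in white skin. NPPC, the precursor of C-type natriuretic peptide, was at 8.55 FPKM in black, 23.1 in brown and 42.8 in white skin. CHAC1, an enzyme that degrades glutathione and is induced by cellular stress, was at 18.3 FPKM in black, 26.4 in brown and 83.8 in white skin, and STAR, which carries cholesterol into mitochondria, at 5.92 FPKM in black, 9.39 in brown and 25.3 in white skin. OTOR, a small secreted protein first described in the cochlea, was at 16.5 FPKM in black, 10.9 in brown and 85.2 in white skin, so brown was lowest there. The remaining ones of the 20 highest were COL21A1, THBS4, GDPD2, LRRC17, SEMA5A, ANGPTL1, ANGPTL5, SMPD3 and the microRNA locus MIR671, with centred ratios from 1.89 to 2.29. MIR671 spans 121 bp, less than a usual sequencing fragment, and its FPKM of 10.9 in black and 62.3 in white does not measure the mature microRNA in a poly-A library.

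In the level of brown skin the tails had this in common: at 17 of the 20 leading genes of each tail brown lay between black and white. Over the whole tails it lay between them at 756 of the 883 higher loci and at 340 of the 484 lower loci. Since the tails were chosen for a wide gap between black and white, another value would often lie within it, and nothing is read from these counts.

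**Figure D3:**
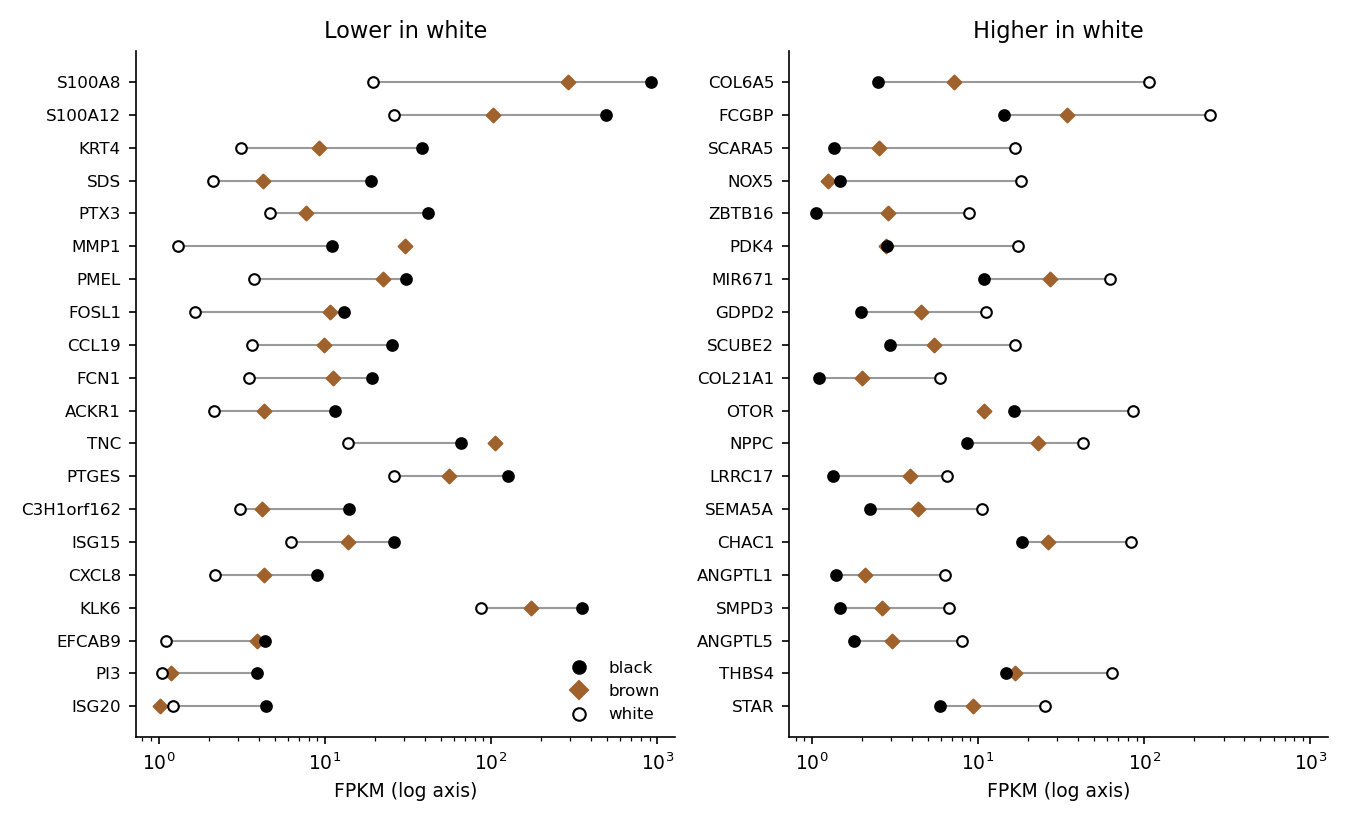
FPKM on a log axis of the 20 genes with the lowest (left) and the 20 with the highest (right) centred ratio among genes with a symbol that reached an FPKM of 1 in both, with 1 pooled value per colour as filled circles for black, diamonds for brown and open circles for white. S100A8 spans 19.6 to 912 FPKM and COL6A5 2.51 to 107, while brown lies above both other colours at MMP1 and TNC.

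The gene lists below come from general knowledge but were chosen with earlier results of these data known. Their shares in the tails therefore describe these genes and are no independent check. By compartment, the follicle stood most toward white. Of 96 follicle genes with a ratio, 24 (25.0%) were in the higher tail and 5 (5.21%) in the lower, with a median of 0.58, against 6.27%, 3.44% and 0.03 over all loci. The hair shaft list, which holds the keratins and keratin-associated proteins that fill the fibre, had 7 of 15 measured members in the higher tail and none in the lower, with a median of 0.99; another 31 of its 46 genes had no locus of that name. KRT38 was at 6.52 FPKM in black, 21.3 in brown and 23.0 in white skin, KRT39 at 11.9 FPKM in black, 16.7 in brown and 38.9 in white skin and KRT32 at 43.8 FPKM in black, 54.9 in brown and 125 in white skin. The abundant ones were KRTAP11-1, at 1230 FPKM in black, 1262 in brown and 3248 in white skin, and KRTAP3-1, at 3098 FPKM in black, 2989 in brown and 7196 in white skin, just inside the middle with a ratio of 0.99. In the inner root sheath and companion layer, the sleeve that moulds the shaft, 7 of 18 genes were in the higher tail and 1 in the lower, with a median of 0.74. TCHH (trichohyalin), whose cross-linked network hardens this sleeve, was at 605 FPKM in black, 1022 in brown and 1597 in white skin. The desmosomal cadherin DSG4 was at 8.21 FPKM in black, 13.2 in brown and 31.7 in white skin, the lineage factor GATA3 at 16.9 FPKM in black, 23.7 in brown and 48.2 in white skin and KRT72 at 111 FPKM in black, 133 in brown and 316 in white skin. The lower member was CTSL, a lysosomal protease, at 2.65 FPKM in black and 1.30 in white.

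Of the hair matrix and anagen regulators, 7 of 28 (25%) were in the higher tail and none in the lower, against 6.27% and 3.44% of all loci. Above 0 lay 26 of 28, with a median of 0.65. SHH, the Hedgehog ligand of the growing matrix, was at 1.29 FPKM in black, 2.39 in brown and 4.64 in white skin, and the Wnt ligand WNT3 at 6.12 FPKM in black, 16.4 in brown and 24.6 in white skin. FOXN1, the transcription factor whose loss makes mice and rats nude, was at 14.7 FPKM in black, 21.7 in brown and 47.9 in white skin, and PADI4, which converts arginine to citrulline in proteins, at 2.05 FPKM in black, 2.91 in brown and 7.66 in white skin. The dermal papilla and sheath lay differently from these keratinocyte lists: of 21 measured genes 2 were higher and 4 lower, with a median of -0.26 that became 0.01 with the reference genes subtracted. The higher ones were NCAM1 (ratio 1.24) and TBX18 (1.06). The lower ones were CRABP1, a retinoic acid carrier of papilla fibroblasts, at 68.2 FPKM in black, 33.2 in brown and 25.3 in white skin, the phospholipase ENPP2 at 31.7 FPKM in black, 29.8 in brown and 13.4 in white skin, the keratinocyte growth factor FGF7 at 11.9 FPKM in black, 12.6 in brown and 5.15 in white skin and the activin subunit INHBA at 4.30 FPKM in black, 4.38 in brown and 2.42 in white skin. In the stem cell, outer root sheath and telogen list the only gene in a tail was FGF5, the growth factor that ends anagen and whose loss gives long hair in several mammals, at 0.297 FPKM in black, 0.565 in brown and 2.49 in white skin; it was below 1 FPKM in black and brown skin, and the list's median was 0.10.

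Some genes of the tails were neighbours. Along the genome, 14 runs of at least 3 consecutive measured loci lay in one tail, 8 in the higher tail with 51 loci (5.78% of that tail) and 6 in the lower with 22 loci (4.55%). On chromosome 19, a run of 17 loci from position 40515285 to 40809360 ended with KRT38 and KRT32. It summed to 2688 FPKM in black, 3671 in brown and 8938 in white skin, and each of its loci had a centred ratio between 1.00 and 1.77. A run of 7 unnamed loci just before it, from position 40412504 to 40488408, summed to 1280, 1493 and 4155 FPKM. On chromosome 1, a run of 5 loci that holds KRTAP11-1 and KAP8, both proteins of the hair fibre, summed to 4859 FPKM in black, 5129 in brown and 12912 in white. On chromosome 5, 5 unnamed loci summed to 981, 1417 and 3433 FPKM. In these runs some loci have the same start and end, and the authors kept every position of a read with several matches, so near-identical copies share reads: the sums are surer than the single loci, and a run counts fewer independent values than loci.

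Other runs of the higher tail included a stretch of 7 loci on chromosome 3 from CADM3 to beyond CD1E, which was at 0.810 FPKM in black, 1.30 in brown and 5.30 in white skin, and COL6A1 (104 FPKM in black, 119 in brown and 292 in white skin) with COL6A2 (68.8 FPKM in black, 82.1 in brown and 187 in white skin) and 1 unnamed neighbour on chromosome 1. The chromosome 3 stretch is 1345 kb long. In it CD1E, LOC102175634, LOC102179152 and LOC102179721 were below 1 FPKM in black skin and passed the FPKM limit only through white skin, where they are high. TRIM10, TRIM31 and RNF39, ring-finger genes side by side on chromosome 23, had ratios from 1.09 to 1.22, with TRIM10 and TRIM31 below 1 FPKM in black skin. In the lower tail, S100A8, S100A12 and S100A9 lay on chromosome 3 from position 16018873 to 16054238 and summed to 1858 FPKM in black, 535 in brown and 65.3 in white. On chromosome 6, CXCL8, the neutrophil-attracting chemokine, led a run with 5 unnamed loci that summed to 91.8, 35.5 and 24.3 FPKM. IFIT2 and IFIT3, interferon-induced proteins that bind foreign RNA, lay with 2 unnamed loci on chromosome 26 and had ratios of -1.90 and -1.17. The positions are copied from the table, and its genome build is not given in the sources used here.

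**Figure D4:**
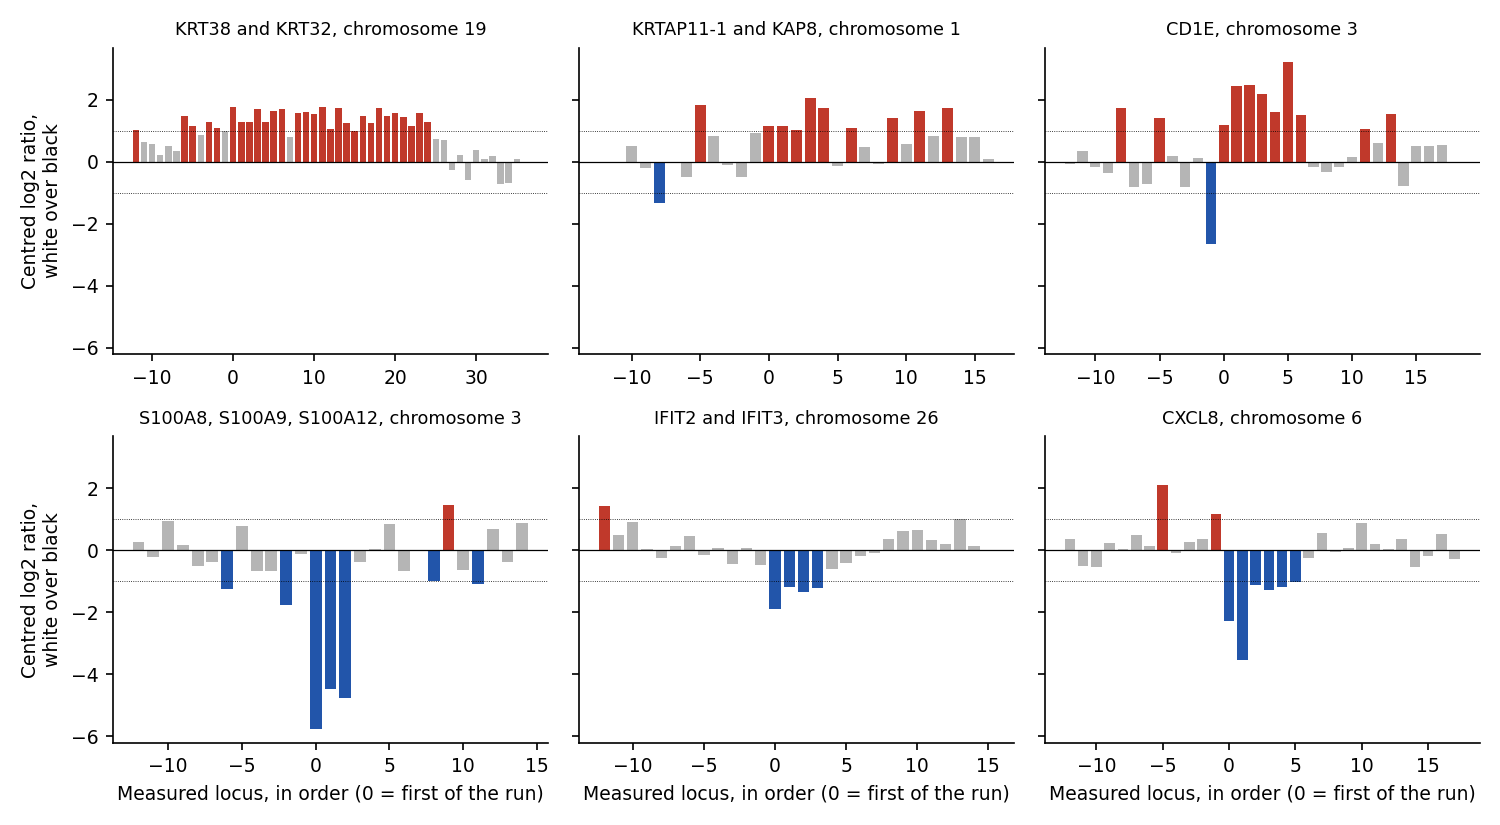
Bars give the centred log2 ratio of white over black for consecutive measured loci in 6 stretches, in their order on the chromosome with 0 at the first locus of a run and 12 loci shown on each side where the sequence has them; red and blue bars are in the higher and lower tail, and grey bars lie between. The keratin stretch of chromosome 19 is red over nearly its whole width, with 7 and then 17 loci in the tail and 1 locus between them outside it, while the S100 genes of chromosome 3 reach -5.77 among neighbours near 0.

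In the epidermis lists, 5 of 96 measured genes (5.21%) were higher and 8 (8.33%) lower, against 6.27% and 3.44% of all loci, with a median of 0.07. A biopsy of whole skin does not separate the epidermis from the follicle. The basal layer held 2 of 19 in the higher tail, and its median of 0.40 became 0.24 within bins of span. These 2 were COL17A1, the hemidesmosomal collagen that anchors basal cells, at 96.3 FPKM in black, 175 in brown and 242 in white skin, and POSTN, at 396 FPKM in black, 649 in brown and 1147 in white skin; POSTN (periostin) is mostly secreted by fibroblasts. The major basal keratins were close to the middle, with KRT14 at 7238 FPKM in black, 12437 in brown and 8995 in white skin and a ratio of 0.09. Among 36 suprabasal and cornified envelope genes, 3 were higher and 2 lower. Involucrin (IVL), a scaffold of the cornified envelope, was at 40.5 FPKM in black, 63.5 in brown and 129.8 in white skin, the cornulin gene CRNN at 26.2 FPKM in black, 39.1 in brown and 75.4 in white skin and KRT77 at 132 FPKM in black, 131 in brown and 397 in white skin. The protease KLK8 (-1.30) and LY6D (-1.03) were in the lower tail. None of 20 barrier lipid genes was in a tail. By contrast, the 21 measured mucosal and stress epithelial genes had 6 in the lower tail, none in the higher and a median of -0.59. These 6 include KRT4, the elastase inhibitor PI3 (elafin) at 3.90 FPKM in black, 1.18 in brown and 1.05 in white skin, S100A7 and S100A2, and the list also holds S100A11, at 1909 FPKM in black, 2095 in brown and 1339 in white skin, which stayed between the tails.

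Of 45 gland genes with a ratio, 2 (4.44%) were higher and 4 (8.89%) lower, against 6.27% and 3.44% of all loci, with a median of -0.04. Sebaceous gland and lipid synthesis genes were close to the middle, with none of 35 higher, 2 lower (among them GAL, at -1.99) and a median of -0.09 that turned positive without centring (0.14), within bins of expression (0.06) and against reference genes (0.18). The sweat and mucous gland list was split, with 2 of 10 genes higher and 2 lower. Another 12 of its 29 genes were under the limits and 7 had no locus of that name. Besides FCGBP, the higher one was the carbonic anhydrase CA6, at 5.28 FPKM in black, 5.56 in brown and 15.5 in white skin. The lower ones were MUCL1, a small mucin-like protein, at 34.5 FPKM in black, 78.8 in brown and 2.26 in white skin, and lactoferrin (LTF), an iron-binding defence protein that neutrophils also store, at 2.83 FPKM in black, 2.25 in brown and 0.344 in white skin. The gland's water channel AQP5, 1 of 3 fixed sweat gland markers and the only one with a locus of that name, was at 5.31 FPKM in black, 1.90 in brown and 4.59 in white skin.

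In the dermis, 20 of 151 genes (13.2%) were in the higher tail and 15 (9.93%) in the lower, both above the 6.27% and 3.44% of all loci, with a median of 0.21. Of 27 measured collagen genes 8 were higher and none lower, with a median of 0.61 that was 0.39 within bins of span, where 7 genes were in the higher tail. COL3A1, of the fibrils of soft connective tissue, was at 171 FPKM in black, 265 in brown and 486 in white skin. The chains of collagen I, COL1A1 (258 FPKM in black, 306 in brown and 475 in white skin) and COL1A2 (208 FPKM in black, 268 in brown and 422 in white skin), pointed the same way without reaching the tail. Besides COL6A5, COL6A1 and COL6A2, the collagen VI genes in the higher tail included COL6A6, at 0.987 FPKM in black, 1.85 in brown and 3.47 in white skin. COL6A3, another collagen VI gene, lay the other way, at 71.3 FPKM in black, 95.8 in brown and 54.6 in white skin. Its ratio of -0.61 was the lowest of the collagen list, between the tails. COL21A1 and COL24A1 were in the tail from low levels, with COL24A1 at 0.131 FPKM in black, 0.422 in brown and 1.32 in white skin.

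Of 35 proteoglycans and other dermal matrix genes, 6 were higher (17.1%) and 4 lower (11.4%), against 6.27% and 3.44% of all loci. Their median of 0.51 was 0.22 within bins of span. In the higher tail were KERA (keratocan), at 0.161 FPKM in black, 0.393 in brown and 1.85 in white skin, THBS4, at 14.7 FPKM in black, 16.7 in brown and 63.7 in white skin, OGN (osteoglycin), at 6.60 FPKM in black, 13.1 in brown and 22.2 in white skin, and CILP, at 7.03 FPKM in black, 7.38 in brown and 22.6 in white skin. In the lower tail, next to TNC, were the thrombospondins THBS1, at 201 FPKM in black, 184 in brown and 78.6 in white skin, and THBS2, at 37.4 FPKM in black, 58.9 in brown and 20.4 in white skin, and the hyaluronan synthase HAS1, at 6.28 FPKM in black, 5.35 in brown and 2.60 in white skin. The most abundant proteoglycan, DCN (decorin), was at 806 FPKM in black, 1038 in brown and 869 in white skin, with a ratio of -0.12. None of 29 elastic fibre and cross-linking genes was in a tail, and their median of 0.14 was -0.12 within bins of span. Matrix proteases and their inhibitors lay the other way, with 1 of 26 higher, 7 lower and a median of -0.28. Along with MMP1, the aggrecanase ADAMTS4 was at 12.3 FPKM in black, 5.21 in brown and 3.84 in white skin, the metalloprotease MMP19 at 14.1 FPKM in black, 15.1 in brown and 4.46 in white skin, the urokinase receptor PLAUR at 21.4 FPKM in black, 17.3 in brown and 6.88 in white skin and the inhibitor TIMP1 at 413 FPKM in black, 286 in brown and 148 in white skin.

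Fibroblast markers and regulators went in both directions, with 5 of 34 higher (14.7%), 4 lower (11.8%) and a median of 0.12. Over all loci the shares were 6.27% and 3.44%. PI16, a marker of adventitial fibroblasts in mouse and human tissues, was at 28.8 FPKM in black, 41.2 in brown and 113 in white skin. Adipsin (CFD), a protease of the alternative complement pathway, was at 7.17 FPKM in black, 8.25 in brown and 22.9 in white skin, and CTGF, a matricellular growth factor target of YAP, at 27.3 FPKM in black, 52.2 in brown and 81.2 in white skin. TNFRSF11B (osteoprotegerin), the decoy receptor that blocks RANKL, was at 0.293 FPKM in black, 1.62 in brown and 10.8 in white skin. Lower in white were PDPN (podoplanin), at 61.9 FPKM in black, 61.9 in brown and 20.4 in white skin, WISP1 at 2.72 FPKM in black, 3.24 in brown and 1.01 in white skin, the homeobox gene MEOX1 at 5.54 FPKM in black, 4.53 in brown and 2.38 in white skin and IGFBP4 at 101 FPKM in black, 124 in brown and 56.8 in white skin; brown was close to black or above it at these 4 genes. PDPN also marks lymphatic vessels.

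The immune lists leaned the other way from the follicle: of 204 genes 39 were in the lower tail (19.1%) and 20 in the higher (9.80%), with a median of -0.11. Both shares were above the 3.44% and 6.27% of all loci. The neutrophil, alarmin and myeloid activation list held 11 of these 39, out of 20 measured genes, with none higher and a median of -1.42. S100A9, the partner of S100A8, was at 455 FPKM in black, 141 in brown and 19.7 in white skin. Without these 3 S100 genes the list still held 8 lower genes, of which PTX3 had the next lowest ratio. Of the defining neutrophil markers, CSF3R, MPO and CD177 were low, while CXCR2 was nearer the typical level. The median over all loci with a ratio was 7.81 FPKM in black and 9.56 in white skin. CSF3R, the receptor for G-CSF, was at 2.17 FPKM in black, 0.826 in brown and 0.548 in white skin, and CXCR2 at 8.64 FPKM in black, 8.61 in brown and 6.31 in white skin, while MPO (0.0208 in black and 0.173 in white) and CD177 (0.0119 and 0.0139) were near 0. Summed over the 4 of 5 fixed markers with a locus, they stood at 10.8 FPKM in black, 9.45 in brown and 7.04 in white, and 1 of the 4 was in the lower tail. Keratinocytes also make S100A8, S100A9 and S100A12 in stressed epidermis, and the part of either cell type in the difference was not tested.

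Chemokines and their receptors were split, with 4 of 30 higher (13.3%) and 7 lower (23.3%), against 6.27% and 3.44% of all loci. Their median of -0.14 was 0.09 without centring and 0.14 against reference genes. The higher ones were CCL26, CCL27, CCL17 and CXCL9. CCL26 (eotaxin-3) was at 84.0 FPKM in black, 63.8 in brown and 278 in white skin, CCL27, which keratinocytes make and which draws skin-homing T cells, at 41.3 FPKM in black, 47.1 in brown and 168 in white skin, and CCL17 at 0.883 FPKM in black, 0.404 in brown and 7.11 in white skin; brown skin was close to black or below it at all 3. CXCL9, an interferon gamma target, was in the same tail at 0.468 FPKM in black, 0.697 in brown and 1.12 in white skin. Lower in white were CCL19 (25.4 FPKM in black, 9.91 in brown and 3.66 in white skin) and CCL21 (28.8 FPKM in black, 22.7 in brown and 14.1 in white skin), the pair of ligands that guide cells through CCR7, the endothelial scavenger receptor ACKR1 (11.6 FPKM in black, 4.28 in brown and 2.15 in white skin), CXCL8 and the monocyte-attracting CCL2 (154 FPKM in black, 126 in brown and 80.9 in white skin).

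Of 40 interleukins, TNF family and acute mediators 6 were higher and 6 lower, 15% each, against 6.27% and 3.44% of all loci. Their median of -0.03 was 0.20 without centring and 0.24 against reference genes. The higher ones were receptors in part. IL13RA2, the decoy receptor for IL-13, was at 0.0369 FPKM in black, 0.240 in brown and 1.42 in white skin, IL1RL1, the receptor for IL-33, at 1.13 FPKM in black, 1.45 in brown and 3.93 in white skin, the IL-1 decoy IL1R2 at 14.1 FPKM in black, 28.0 in brown and 43.7 in white skin, and IL20RB, 1 of the 3 most abundant of the list, at 29.7 FPKM in black, 39.9 in brown and 69.9 in white skin. IL34, which feeds Langerhans cells, was at 8.84 FPKM in black, 12 in brown and 22.9 in white skin. Lower in white besides PTGES were SOCS3, the feedback inhibitor of STAT3 signalling, at 19.9 FPKM in black, 10.8 in brown and 8.75 in white skin, IL4R at 12.3 FPKM in black, 8.69 in brown and 5.54 in white skin and TNFSF13B (BAFF) at 1.12 FPKM in black, 0.757 in brown and 0.434 in white skin. Interferon-stimulated genes were mostly lower, with 25 of 28 below 0, a median of -0.56, 5 in the lower tail and 1, IFI44 (1.87 FPKM in black, 2.98 in brown and 4.42 in white skin), in the higher. Next to ISG15, the lower ones include IFIT2, IFIT3 and BST2 (tetherin), at 5.63 FPKM in black, 3.68 in brown and 2.65 in white skin. The 5 in the lower tail were 17.9% of the measured list, against 3.44% of all loci. Within bins of span the median of the interferon list was -0.41, with 4 genes in the lower tail. Reference genes were also mostly below 0, at 13 of 15 with a median of -0.27.

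Lists of single immune cell types held fewer than 5 genes in either tail. The macrophage, dendritic cell and MHC class II list had 3 of 30 higher and 4 lower. The Langerhans cell lectin CD207 was at 11.7 FPKM in black, 9.24 in brown and 5.86 in white skin, CD40 at 7.72 FPKM in black, 7.63 in brown and 3.70 in white skin, and the scavenger receptor MSR1 at 2.92 FPKM in black, 2.18 in brown and 0.760 in white skin. CLEC7A (dectin-1), which recognises fungal glucans, was on the higher side at 1.59 FPKM in black, 3.07 in brown and 4.56 in white skin, and the MHC class II chaperone CD74 between the tails at 267 FPKM in black, 177 in brown and 459 in white skin. Of the 4 fixed macrophage markers 2 had a locus, CSF1R (ratio 0.17) and C1QA (0.43), both between the tails. These 2 markers summed to 41.7 FPKM in black, 34.9 in brown and 61.2 in white skin, so their sum was highest in white. Of 21 T and NK cell genes none was higher and 3 lower, the cytotoxic peptide GNLY at 26.5 FPKM in black, 4.03 in brown and 8.25 in white skin, CD7 at 16.3 FPKM in black, 13.5 in brown and 5.69 in white skin and CST7 at 1.04 FPKM in black, 1.16 in brown and 0.590 in white skin; the 4 fixed T cell markers summed to 16.5 FPKM in black and 21.9 in white. Mast cell genes had 2 of 8 higher and none lower, with a median of 0.50: MS4A2, a subunit of the IgE receptor, was at 3.28 FPKM in black, 5.26 in brown and 9.79 in white skin, and KIT, which melanocytes also use, at 3.33 FPKM in black, 8.02 in brown and 11.0 in white skin. The mast cell carboxypeptidase CPA3, at 11.8 FPKM in black, 15.4 in brown and 25.9 in white skin, stayed between. Of 9 B and plasma cell genes 3 were higher (FCER2, BANK1 and CR2), of which FCER2 was at 8.07 FPKM in black, 6.96 in brown and 22.5 in white skin, but the defining B cell marker MS4A1 was at 0.0263 FPKM in black and 0.134 in white. Complement genes had 1 of 18 higher and 3 lower, and their median of -0.10 changed sign without centring (0.13), within bins of span (0.01) and against reference genes (0.17). C3, the central component, was at 45.5 FPKM in black, 57.1 in brown and 169 in white skin; a second locus that the reference annotation also names C3 makes its level uncertain. The lower ones were the ficolin FCN1, at 19.2 FPKM in black, 11.2 in brown and 3.48 in white skin, factor B (CFB), at 11.1 FPKM in black, 6.67 in brown and 4.83 in white skin, and MASP1, at 17.5 FPKM in black, 15.2 in brown and 8.55 in white skin.

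Of 85 vessel genes 8 (9.41%) were higher and 5 (5.88%) lower, against 6.27% and 3.44% of all loci, with a median of 0.15. In the endothelial list 2 of 33 were higher, STAB1 (1.30) and the Tie2 ligand ANGPT2 (1.36), and 1 lower, ECSCR (-1.24); within bins of span ANGPT2 was at 0.80 and left the tail. The 3 fixed endothelial markers were all between the tails. The activated vessel wall list had 2 of 20 higher and 3 lower. Of the lower ones, SELP (P-selectin), which inflamed endothelium displays, was at 8.43 FPKM in black, 1.31 in brown and 0.969 in white skin, SELE (E-selectin) at 33.4 FPKM in black, 26.7 in brown and 10.2 in white skin and VNN2 at 18.0 FPKM in black, 11.0 in brown and 4.96 in white skin. The higher ones were both of coagulation, with tissue factor (F3) at 22.5 FPKM in black, 35.7 in brown and 80.8 in white skin and factor XIII (F13A1) at 25.0 FPKM in black, 38.9 in brown and 74.3 in white skin. Within bins of span F13A1 was at 0.99 and left the tail, and the list's median was 0.08, or -0.01 with a pseudocount of 1 FPKM. Of 29 pericyte and smooth muscle genes 3 were higher and none lower, among them the pericyte gene RGS5, at 40.4 FPKM in black, 67.5 in brown and 97.8 in white skin, and the cGMP phosphodiesterase PDE5A, at 1.26 FPKM in black, 2.77 in brown and 4.80 in white skin; within bins of span 1 remained in the tail, and the median of 0.25 became 0.15. Of 15 red blood cell genes 3 had a ratio, 1 higher and 1 lower, with a median of 0.43. The lower one was the globin HBBC, at 1.29 FPKM in black, 0.0887 in brown and 0.0745 in white skin. The higher one was SLC4A1, at 0.512 FPKM in black, 0.684 in brown and 1.88 in white skin. HBBC was below 1 FPKM in white skin and SLC4A1 in black skin.

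Among the other cells of the skin, 3 of 55 genes (5.45%) were higher and 6 (10.9%) lower, against 6.27% and 3.44% of all loci, with a median of -0.08. Pigment genes had the widest range of all lists, from -6.58 to 7.42. Of 17 melanocyte genes with a ratio, 4 were lower and 1 higher. ASIP, the antagonist of the melanocortin receptor, is secreted by dermal papilla fibroblasts rather than by melanocytes, and stood at 0.882 FPKM in black, 114 in brown and 177 in white skin; TYRP1, an enzyme of melanin synthesis, was at 9.79 FPKM in black, 9.72 in brown and 0.120 in white skin. The melanosome fibril gene PMEL was at 30.9 FPKM in black, 22.5 in brown and 3.77 in white skin, tyrosinase (TYR) at 1.98 FPKM in black, 2.48 in brown and 0.704 in white skin and DCT at 2.50 FPKM in black, 5.60 in brown and 1.05 in white skin, while MLANA (5.95 FPKM in black, 14.8 in brown and 5.86 in white skin) and SOX10, the lineage factor shared with Schwann cells (2.97 FPKM in black, 2.81 in brown and 1.99 in white skin), were between the tails. In all, 12 of the 17 were between the tails. They include MITF, at 3.90 FPKM in black, 7.11 in brown and 8.83 in white skin (ratio 0.95), RAB38 (0.48) and MC1R (-0.02). Over the list 6 genes were above 0 and 11 below. The list's median of -0.25 was 0.02 against reference genes and 0.02 at loci with an FPKM of at least 5. Schwann cell and nerve genes had 1 of 16 higher, PLLP (1.35), and a median of 0.23, which was -0.10 at loci with an FPKM of at least 5. Of 14 adipocyte genes 1 was higher, the lipase LPL at 0.895 FPKM in black, 1.87 in brown and 2.35 in white skin, and 1 lower, THRSP at 18.5 FPKM in black, 13.1 in brown and 9.99 in white skin; their median of -0.11 turned positive without centring (0.12), within bins of span (0.07) and against reference genes (0.17). In the skeletal muscle list 1 of 8 measured genes, TCAP (-1.03), was in a tail.

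Lists of cell state and housekeeping held few genes of the tails, 2 of 239 in the higher (0.837%) and 7 in the lower (2.93%), against 6.27% and 3.44% of all loci, with a median of -0.32 on the black side of the centre. Of 71 cytosolic ribosomal protein genes 70 were below 0, with a median of -0.31 and none in a tail; of 51 respiratory chain genes 50 were below 0, with a median of -0.46, and 1, ATP5G1 (260.1 FPKM in black, 275 in brown and 124 in white skin), was in the lower tail. These loci are short, and within bins of span the medians were -0.13 and -0.33. The reference genes had a median of -0.27, with GAPDH at 1114 FPKM in black, 1131 in brown and 888 in white skin. Cell cycle and proliferation genes were below 0 at 36 of 42, with a median of -0.28 (-0.19 within bins of span) and 1, the replication factor CDC45 (-1.06), in a tail, while the matrix keratinocyte genes above were on the white side. Heat shock and chaperone genes had 1 of 26 higher, HSPA2 (18.1 FPKM in black, 25.7 in brown and 45.9 in white skin), and 3 lower, the endoplasmic chaperone CALR (629.9 FPKM in black, 606 in brown and 348 in white skin), HSPE1 (-1.05) and HSPA6 (-1.12), with a median of -0.47 and none lower within bins of span. Immediate early genes, which respond to handling and wounding within minutes, had a median of 0.25, with 1 of 34 higher, FOSB (1.81 FPKM in black, 10.5 in brown and 6.65 in white skin), and 2 lower, FOSL1 and NR4A3. Within bins of span their median was 0.43 and 5 were higher.

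**Figure D5:**
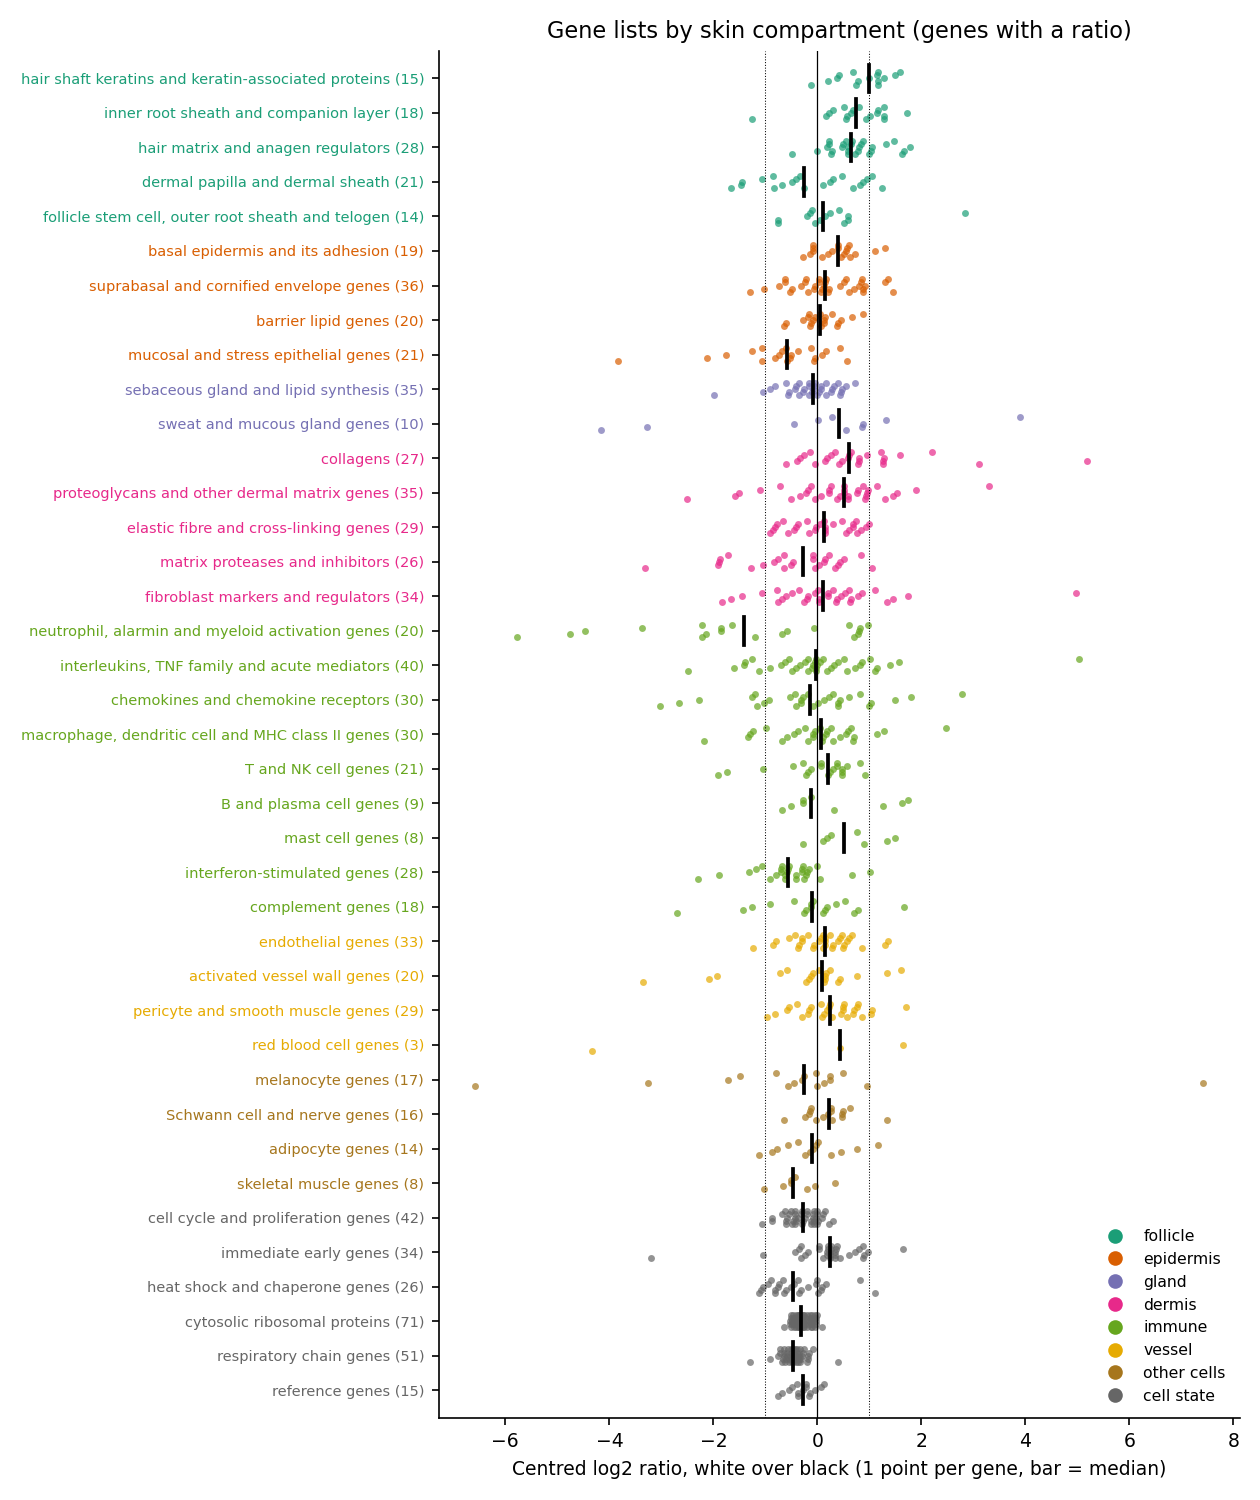
Each point is 1 gene of a list, placed by its centred log2 ratio of white over black, with black bars at list medians, colours for compartments and the number of genes with a ratio in brackets; dotted lines mark the 2-fold limits. Medians reach 0.99 for the hair shaft list and -1.42 for the neutrophil, alarmin and myeloid activation list, and the ribosomal protein genes form a narrow band with a median of -0.31.

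The 82 loci listed at 0 in one colour were at 0 in black in 47 cases and in white in 35, and 31 of them spanned less than 300 bp. The highest levels among them belonged to 2 transfer RNA loci named TRNAC-GCA, at 79.0 and 76.3 FPKM in white and 0 in black, to LOC102180194, a protein-coding locus on chromosome 29, at 67.4 FPKM in black, 11.1 in brown and 0 in white, to TRNAE-UUC, at 60.1 in black and 0 in white, and to an unnamed mitochondrial locus of 69 bp, at 58.9 in white and 0 in black. No fold is given for them, and a locus shorter than a sequencing fragment has an unreliable FPKM.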

How the data were processed

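Flank skin RNA of 6 goats was sequenced by the authors after poly-A selection. According to the methods and the submitters' processing notes, reads were aligned with TopHat 2.1.0 and Bowtie 2.2.6 (the notes name Bowtie2 version 2) with 1 mismatch allowed in the seed and all positions of multi-mapped reads reported, Cufflinks 2.2.1 measured the transcripts, and CuffDiff gave the comparisons between colours. The genome build is not given in the sources used here. The deposited FPKM values were made by the authors as 1 value per colour over its 2 goats, so no SD, count or depth per goat could be given. The authors' own comparison columns (log2 fold change, test statistic, p-value, q-value and significance) were not used, apart from the test status.

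Ratios were computed with Python 3.11.15, pandas 2.3.3 and numpy 2.4.6, and plotted with matplotlib 3.10.9, as log2 of white over black without a pseudocount, and centred on the median. Counting and centring were tested on simulated data. A gene in a tail had an absolute centred log2 ratio of at least 1. No test was made. The members and the 39 gene lists (1324 genes) were chosen with earlier results of these data known, and the lists come from general knowledge. Gene symbols are those of the table, and for loci with a numbered name those of a goat RefSeq annotation of another build (ARS1.2), which was used for names and classes only. Of 2337 such loci, 1740 had their gene ID there and 335 got a symbol. Each of 30 sequences was assigned the chromosome that most of its gene names have there, with a lowest share of 69.5%.

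Genes were named by rule: per tail the 20 largest ratios with FPKM of at least 1 in both colours and a symbol in the table, per tail the 10 largest differences in FPKM, per list up to 4 members of each tail and the 3 most abundant, up to 5 loci listed at 0, and genes in runs of at least 3 neighbours. This gave 268 genes. Fixed cell type markers, loci beside a limit and some list members between the tails are named in addition. Alternatives were pseudocounts, filters, centrings, a stricter fold, any test status and loci with a symbol. Some genes of the lists and runs are counted but not reported here by name.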

Additional observations from a re-analysis of the deposited data

How the results depend on the processing

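The 883 loci higher and 484 lower in white depended most on the filter, the centring and the fold. With a pseudocount of 1 FPKM 394 were higher. With an FPKM of at least 5 in either colour the counts were 432 and 278, and with at least 1 in both colours 512 were higher. Without centring they were 1509 and 310, and with the median of reference genes subtracted 1675 and 280. At a 4-fold limit they were 127 and 87. Among loci with 1 symbol that does not start with LOC, 292 were lower. The cause was not tested beyond the construction of each alternative, where fewer loci were counted or the centre was moved. Bins of span or of expression, a pseudocount of 0.1 FPKM, no filter and any test status left both counts within 1.5 times, as did an alternative chosen after seeing the data, which left out loci under 300 bp. Of the 178 named genes in a tail, none changed direction under the alternatives that kept it in the comparison, while genes near 0 such as DCN and KRT1 do change sign without centring. A gene in a tail has an absolute ratio of at least 1, and leaving out the centring moves a ratio by only 0.23. A change of direction was therefore hardly possible, and its absence is no check of these genes. Most of the losses came at the 4-fold limit (125), with a pseudocount of 1 FPKM (28), within bins of span (23), against reference genes (22) and without centring (16). Within bins of span, OGN, ANGPT2, F13A1, NCAM1, FLT3, RGS5, MMP16, CXCL9, CASQ2 and IL20RB left the higher tail, and IFIT3, CCL2, THRSP, HSPA6, CALR, INHBA, IGFBP4, CDC45, HSPE1, CST7, LY6D, TCAP and SPRR4 left the lower. No paired analysis was possible because the table gives 1 value per colour and no columns per goat, and for the same reason leaving out a goat could not be run. The pooled FPKM limits every value above: its precision is unknown, and values under 1 FPKM make the largest ratios the least sure.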
